A study of Mus musculus with 9 samples.

Results

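The genes described here are 10 chaperones and stress-response genes of the endoplasmic reticulum (ER): Hspa5, Hsp90b1, Calr, Pdia4, Pdia6, Dnajb9, Herpud1, Xbp1, Sdf2l1 and Hyou1. They were chosen by symbol, as every probe set that the platform annotation assigns to 1 of these genes and to no other. This gave 23 probe sets of the 45037 on the array, and 10 of the 18193 genes with a probe set of their own. Gene expression was measured on Affymetrix mouse arrays in 170#3, a mouse pancreatic cancer line of mixed C57BL6 x FVB x 129Sv background grown as a monolayer in serum-containing medium. The line was stably transfected with a control, with beta-catenin (the transcriptional effector of canonical Wnt signalling) or with ICAT (an inhibitor that occupies beta-catenin and keeps TCF factors from joining it). Each group had 3 arrays, 9 in all. The labels call the 3 arrays of a group biological replicates. They do not give the promoter of the constructs or whether each transfected line is 1 clone or a pool. Nor do they say whether the 3 arrays of a group came from separate transfections. P-values therefore measure the spread between these arrays, which may not include that between transfections or clones.

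Proteins that enter the secretory pathway fold in the ER with the help of chaperones such as Hspa5 (BiP) and of disulfide isomerases such as Pdia4 and Pdia6. When unfolded proteins build up, the sensors Ern1 (IRE1), Eif2ak3 (PERK) and Atf6 start the unfolded protein response, in which spliced Xbp1, Atf4 and cleaved Atf6 drive the transcription of chaperones and of degradation genes. Cells of the exocrine pancreas secrete large amounts of protein and are known to depend on this response.

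Members of this pathway are known to share promoter elements: the ER stress response element (ERSE, the letters CCAAT and CCACG with 9 bases of any kind between them), its variant ERSE-II (ATTGG and CCACG with 1 base between them) and the unfolded protein response element (UPRE, TGACGTGG). The 250 bases before the annotated start were searched on both strands for these letters in the RefSeq promoters of build GRCm38.p6, which held 9 of the 10 genes, with Hyou1 not among them. An ERSE match was found in 4 of them, Hspa5, Hsp90b1, Calr and Pdia6, an ERSE-II match in Herpud1, and no UPRE match in any. Of all 32851 windows of the same length, 0.113% held an ERSE match, 0.0304% an ERSE-II match and 0.563% a UPRE match. None of the 3 sets of letters was found in Pdia4, Dnajb9, Xbp1 or Sdf2l1, which says only that these letters are not in these windows. The 5 windows with a match are shown because these genes are known as shared targets of the response, and those of Dnajb9 and Xbp1 because their calls held whichever array was left out. Each is written 5′ to 3′ on the strand of the gene, with matches in capitals. They lie at chr2:34771840-34772089 on the plus strand (Hspa5), chr10:86705445-86705694 on the minus strand (Hsp90b1), chr8:84846932-84847181 on the minus strand (Calr), chr12:17266339-17266588 on the plus strand (Pdia6), chr8:94386179-94386428 on the plus strand (Herpud1), chr12:44210069-44210318 on the minus strand (Dnajb9) and chr11:5520391-5520640 on the plus strand (Xbp1).
Hspa5: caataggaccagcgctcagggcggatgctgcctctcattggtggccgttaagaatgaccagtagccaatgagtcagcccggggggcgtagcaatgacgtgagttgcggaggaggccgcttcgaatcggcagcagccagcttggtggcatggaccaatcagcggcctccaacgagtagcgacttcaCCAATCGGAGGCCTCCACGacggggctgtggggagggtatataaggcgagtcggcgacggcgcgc
Hsp90b1: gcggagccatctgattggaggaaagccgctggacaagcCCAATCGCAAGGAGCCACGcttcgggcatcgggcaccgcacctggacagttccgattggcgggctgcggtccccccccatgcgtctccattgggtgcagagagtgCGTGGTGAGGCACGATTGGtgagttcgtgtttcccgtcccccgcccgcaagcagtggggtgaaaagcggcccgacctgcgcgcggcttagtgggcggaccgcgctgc
Calr: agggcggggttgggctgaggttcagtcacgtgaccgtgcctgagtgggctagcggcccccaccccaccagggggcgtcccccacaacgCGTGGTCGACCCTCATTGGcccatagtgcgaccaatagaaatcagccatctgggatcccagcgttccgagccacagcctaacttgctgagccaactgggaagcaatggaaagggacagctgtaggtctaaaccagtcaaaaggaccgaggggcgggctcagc
Pdia6: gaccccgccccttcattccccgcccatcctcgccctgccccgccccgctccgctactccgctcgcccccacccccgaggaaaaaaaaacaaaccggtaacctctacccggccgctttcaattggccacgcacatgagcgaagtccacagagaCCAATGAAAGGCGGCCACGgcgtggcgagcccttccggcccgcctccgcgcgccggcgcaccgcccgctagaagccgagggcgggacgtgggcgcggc
Herpud1: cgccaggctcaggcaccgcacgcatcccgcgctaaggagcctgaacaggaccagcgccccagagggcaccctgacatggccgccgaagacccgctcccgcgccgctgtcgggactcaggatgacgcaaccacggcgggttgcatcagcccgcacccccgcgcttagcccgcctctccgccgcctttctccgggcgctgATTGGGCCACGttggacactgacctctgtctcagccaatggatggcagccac
Dnajb9: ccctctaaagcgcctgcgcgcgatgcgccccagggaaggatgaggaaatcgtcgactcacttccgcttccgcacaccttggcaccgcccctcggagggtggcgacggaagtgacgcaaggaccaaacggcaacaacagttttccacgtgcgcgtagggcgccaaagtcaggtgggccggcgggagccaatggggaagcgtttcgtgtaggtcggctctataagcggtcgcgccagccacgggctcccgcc
Xbp1: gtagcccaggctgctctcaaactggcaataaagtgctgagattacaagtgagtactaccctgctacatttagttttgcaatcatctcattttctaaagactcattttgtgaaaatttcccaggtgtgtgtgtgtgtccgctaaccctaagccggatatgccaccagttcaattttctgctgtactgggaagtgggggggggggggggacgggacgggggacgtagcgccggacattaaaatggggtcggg

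The Hspa5 match spans bases -65 to -47 counted from the start, and that of Pdia6 bases -98 to -80. Hsp90b1 has 2 matches, at -212 to -194 and, on the opposite strand, at -107 to -89. The Calr match, at -162 to -144, is also on the opposite strand. Herpud1, a membrane protein of ER-associated degradation, has its ERSE-II match at -52 to -42.

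All values are log2 intensities, in which a difference of 1 is a doubling. Replicates correlated at 0.998 or more among control arrays, 0.997 or more among beta-catenin arrays and 0.991 or more among ICAT arrays, and array medians lay between 6.21 and 6.29. ICAT replicate 1 stood apart for the ER genes: it was the lowest of the 3 ICAT arrays for 10 of the 10 genes, against 31.3% of all 15235 genes tested. The median difference of the 10 genes from their control means was 0.00 on ICAT replicate 1, 0.58 on ICAT replicate 2 and 0.63 on ICAT replicate 3. On the beta-catenin arrays the same median lay between 0.05 and 0.07. ICAT results for the 10 genes and counts for the gene lists are therefore given with and without replicate 1. Leaving out the ICAT array that is lowest for all 10 genes raises each of their ICAT means. The direction of that shift is fixed by the choice, so the values without replicate 1 are no separate support for a difference. For single genes of the lists, the value or adjusted p without it is given for some of those whose call or value changed. Among control arrays the 10 genes had a median SD of 0.0365 (0.0567 over all genes tested), among beta-catenin arrays 0.0295 (0.0746) and among ICAT arrays 0.290 (0.121). Because the fit shares 1 estimate of the spread per gene over the 3 groups, the ICAT spread also enters the comparison of beta-catenin with control. Ctnnb1, which encodes beta-catenin, was 0.20 higher in the beta-catenin line (limma adjusted p = 0.0353) and 0.19 higher in the ICAT line (adjusted p = 0.0364). Ctnnbip1, which encodes ICAT, was 0.14 above control in the ICAT line (adjusted p = 0.189) and 0.14 in the beta-catenin line (adjusted p = 0.208). Whether these probe sets read the transfected sequences is not given in the sources used here, so these values do not check the labels.

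**Figure D1:**
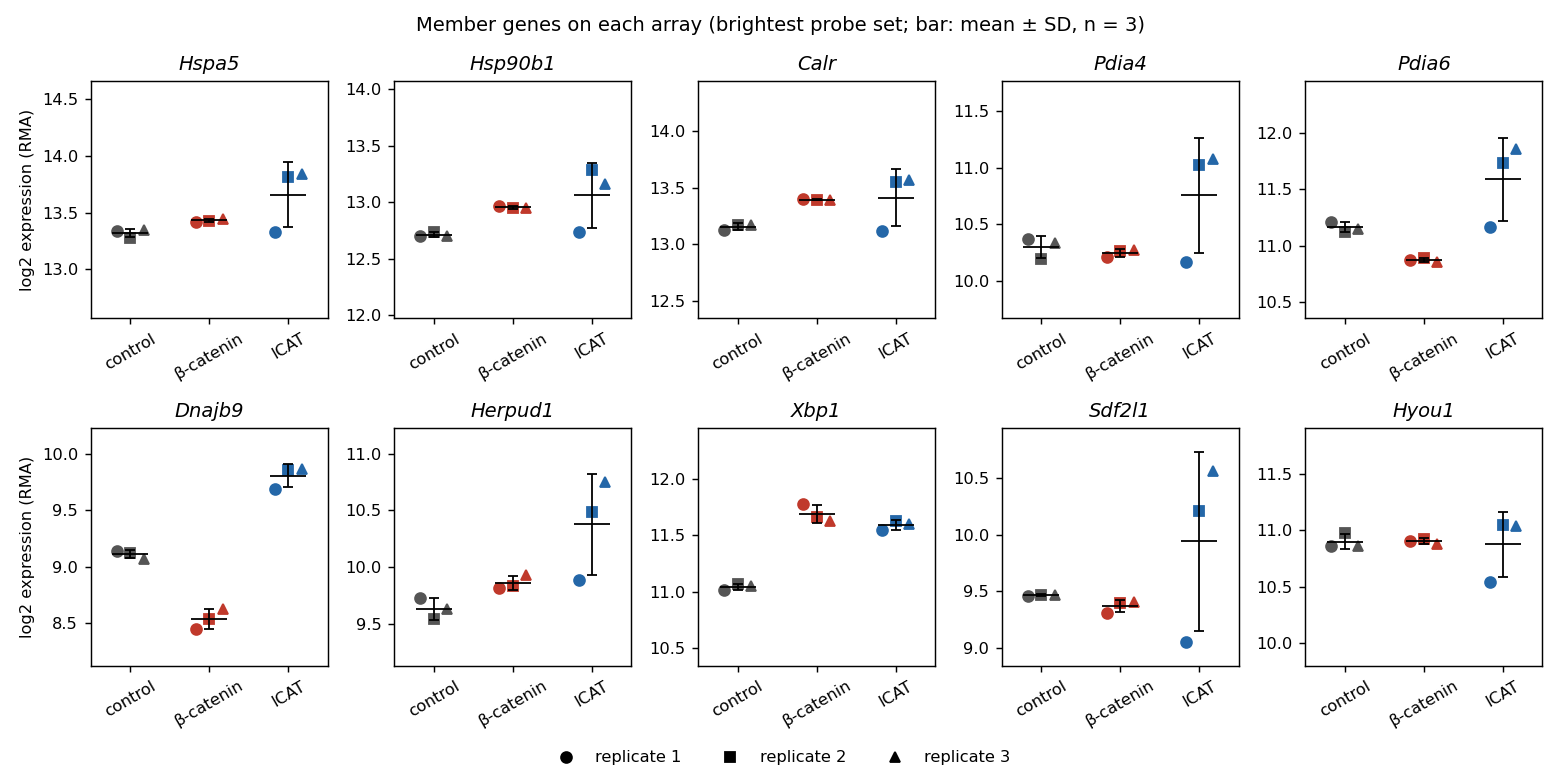
Log2 intensity (y axis) of the 10 ER genes on each array, 1 panel per gene, by group (x axis), with the marker shape giving the replicate and the bar the mean ± SD of 3 arrays. The panels span the same number of log2 units from different starting levels. ICAT replicate 1 is the lowest ICAT array in all 10 panels.

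In the ICAT line 6 of the 10 genes were higher than in control cells and 0 lower with all arrays (limma, adjusted p under 0.05 over all genes tested), where 37.2% of all genes passed, 18.7% higher and 18.5% lower. At an unadjusted p under 0.05, 8 were higher and 0 lower, but the share of all genes at that looser threshold was not counted. The 6 were Hspa5, Hsp90b1, Pdia6, Dnajb9, Herpud1 and Xbp1. The median difference of the 10 genes was 0.44, against -0.01 over all genes tested. Without ICAT replicate 1, 9 of 10 passed in the higher direction, with a median of 0.60, where 19.1% of all genes passed higher and 16.6% lower. This rise follows from leaving out the lowest ICAT array. Dnajb9, Herpud1 and Xbp1 kept their call whichever array was left out. When only the 6 arrays compared were fitted, Hspa5, Hsp90b1 and Pdia6 lost theirs (limma adjusted p = 0.0718, 0.0609 and 0.0639).

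Dnajb9 (ERdj4), a co-chaperone of Hspa5 that is known as a target of spliced Xbp1, changed in opposite directions in the 2 transfected lines. It read 9.14, 9.12 and 9.07 on the control arrays, 8.45, 8.54 and 8.63 on the beta-catenin arrays and 9.69, 9.86 and 9.87 on the ICAT arrays. No array of 1 group overlapped those of another, with beta-catenin lowest and ICAT highest. In ICAT cells it was 1.62-fold higher than in control (log2 difference 0.69, SE 0.0724, limma adjusted p = 2.75e-05), and 1.68-fold without ICAT replicate 1. In beta-catenin cells it was 1.49-fold lower than in control (log2 difference -0.57, SE 0.0724, limma adjusted p = 8.17e-05). Compared directly, it was 2.40-fold lower in beta-catenin than in ICAT cells (log2 difference -1.26, limma adjusted p = 2.24e-07, and -1.32 without ICAT replicate 1). All 3 calls held in each fit that left out 1 array.

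Xbp1, the transcription factor whose messenger RNA is spliced by Ern1, was higher in both lines. It read 11.02, 11.07 and 11.05 in control, 11.78, 11.67 and 11.63 in beta-catenin and 11.54, 11.63 and 11.60 in ICAT cells. Control arrays lay below all others, and the beta-catenin and ICAT arrays overlapped. Beta-catenin cells exceeded control 1.56-fold (limma adjusted p = 9.90e-06). ICAT cells exceeded it 1.46-fold (limma adjusted p = 5.32e-05), and 1.48-fold without ICAT replicate 1. Between the 2 lines the difference was 0.10, with a 95% confidence interval of -0.04 to 0.24 (adjusted p = 0.246). Both calls against control held without any single array. The array does not tell the spliced from the unspliced form, so splicing was not measured. Among the other probe sets of Xbp1, the next 2 in brightness were also higher in both lines (0.62 and 0.53 in beta-catenin, 0.65 and 0.60 in ICAT, adjusted p from 1.82e-05 to 0.000166 in a fit over all probe sets, where 32.9% passed for beta-catenin and 35.4% for ICAT). The dimmest differed by 0.27 in beta-catenin (adjusted p = 0.0552) and 0.11 in ICAT cells (adjusted p = 0.435). Leaving out ICAT replicate 1, these 3 ICAT differences were 0.69, 0.63 and 0.13.

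Of the 10 genes, each by its brightest probe set on all arrays, Herpud1 differed most between ICAT and control. It read 9.73, 9.54 and 9.63 in control, 9.81, 9.84 and 9.93 in beta-catenin and 9.89, 10.49 and 10.76 in ICAT cells. All ICAT arrays exceeded all control arrays, and ICAT replicate 1 lay among the beta-catenin arrays. The gene was 1.68-fold higher in ICAT than in control (limma adjusted p = 0.00455), and 1.99-fold without ICAT replicate 1. Its second probe set was 0.62 higher in ICAT cells (adjusted p = 0.0154 over all probe sets), and 0.88 without that array. In beta-catenin cells Herpud1 was 0.23 above control, which did not pass (adjusted p = 0.340). It was 1.43-fold lower in beta-catenin than in ICAT cells (adjusted p = 0.0288), a call lost without any 1 of the beta-catenin arrays or without ICAT replicate 2 or 3 (adjusted p up to 0.103), or with only the 6 arrays compared (0.0531). Without ICAT replicate 1 the log2 difference between the 2 lines was -0.76 (adjusted p = 8.94e-05).

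Of the luminal chaperones Hspa5, Hsp90b1 and Calr, the first 2 were higher in ICAT than in control with all arrays, and all 3 without ICAT replicate 1. Hspa5, the main Hsp70 of the ER, read 13.34, 13.28 and 13.35 in control, 13.42, 13.43 and 13.44 in beta-catenin and 13.32, 13.81 and 13.84 in ICAT cells. ICAT replicate 1 lay within the control arrays and the other ICAT arrays above every array of the other groups. Hspa5 was 1.26-fold higher in ICAT than in control (limma adjusted p = 0.0378), a call lost when any array other than ICAT replicate 1 was left out (adjusted p up to 0.142) and when arrays were centred on their medians (0.0504). Without ICAT replicate 1 it was 1.42-fold higher (adjusted p = 0.000113).

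Hsp90b1 (GRP94), the Hsp90 of the ER, read 12.70, 12.74 and 12.70 in control, 12.96, 12.95 and 12.95 in beta-catenin and 12.74, 13.29 and 13.16 in ICAT cells. Both transfected groups lay above control on every array, ICAT replicate 1 only just. It was 1.27-fold higher in ICAT than in control (limma adjusted p = 0.0308), lost without any control array or without ICAT replicate 2 or 3 (adjusted p up to 0.12), and when all probe sets of a gene were averaged (0.0991). The value was 1.43-fold without ICAT replicate 1 (adjusted p = 0.00015). In beta-catenin cells the difference from control was 0.24 (adjusted p = 0.131), and adjusted p = 0.00678 without ICAT replicate 1.

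Calr (calreticulin), a lectin chaperone for glycoproteins, read 13.13, 13.17 and 13.17 in control, 13.40, 13.39 and 13.40 in beta-catenin and 13.12, 13.55 and 13.57 in ICAT cells. ICAT replicate 1 lay just below the control arrays. Neither difference from control passed, at 0.24 in beta-catenin (limma adjusted p = 0.102) and 0.26 in ICAT cells (adjusted p = 0.0765). Both passed without ICAT replicate 1 (adjusted p = 0.00448 and 0.000419).

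Pdia6 and Pdia4 are disulfide isomerases, which form and rearrange the disulfide bonds of folding proteins. Pdia6 read 11.21, 11.13 and 11.15 in control, 10.88, 10.89 and 10.86 in beta-catenin and 11.17, 11.73 and 11.86 in ICAT cells. The beta-catenin arrays were the lowest 3 of the 9. Pdia6 was 1.34-fold higher in ICAT than in control (limma adjusted p = 0.0337), lost without any control array or without ICAT replicate 2 or 3 (adjusted p up to 0.126) and 1.55-fold without ICAT replicate 1. It was 1.64-fold lower in beta-catenin than in ICAT cells (log2 difference -0.71, adjusted p = 0.00173), which held without any single array and was -0.92 without ICAT replicate 1. Its difference of -0.29 between beta-catenin and control did not pass (adjusted p = 0.144) but did without ICAT replicate 1 (adjusted p = 0.00303).

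Pdia4 read 10.37, 10.19 and 10.33 in control, 10.21, 10.26 and 10.27 in beta-catenin and 10.17, 11.02 and 11.08 in ICAT cells. ICAT replicate 1 was the lowest array of all, and the other ICAT arrays were the highest. The ICAT difference from control of 0.46 did not pass with all arrays (limma adjusted p = 0.0836), and was 1.68-fold without ICAT replicate 1 (adjusted p = 2.71e-05).

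Sdf2l1, a luminal partner of Hspa5 and its co-chaperones, had the widest spread among ICAT arrays. It read 9.46, 9.47 and 9.47 in control, 9.31, 9.39 and 9.41 in beta-catenin and 9.05, 10.21 and 10.56 in ICAT cells. ICAT replicate 1 was the lowest of the 9 arrays and ICAT replicates 2 and 3 the highest. The difference of 0.48 from control did not pass (limma adjusted p = 0.227), and was 1.89-fold without ICAT replicate 1 (adjusted p = 4.13e-05).

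Hyou1 (GRP170), a large Hsp70-like chaperone and nucleotide exchange factor of Hspa5, had no call against control by its brightest probe set, with or without ICAT replicate 1. It read 10.86, 10.97 and 10.86 in control, 10.91, 10.92 and 10.88 in beta-catenin and 10.54, 11.05 and 11.03 in ICAT cells. The ICAT difference was -0.02 with all arrays (limma adjusted p = 0.909) and 1.11-fold higher without ICAT replicate 1 (adjusted p = 0.114). Its probe sets disagreed, with the second 0.32 below control in ICAT cells (adjusted p = 0.0964 over all probe sets) and the dimmest 0.44 above (adjusted p = 0.0899). In the fit without ICAT replicate 1 the second was -0.11 from control (adjusted p = 0.267) and the dimmest 0.64 higher (adjusted p = 0.0158).

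**Figure D2:**
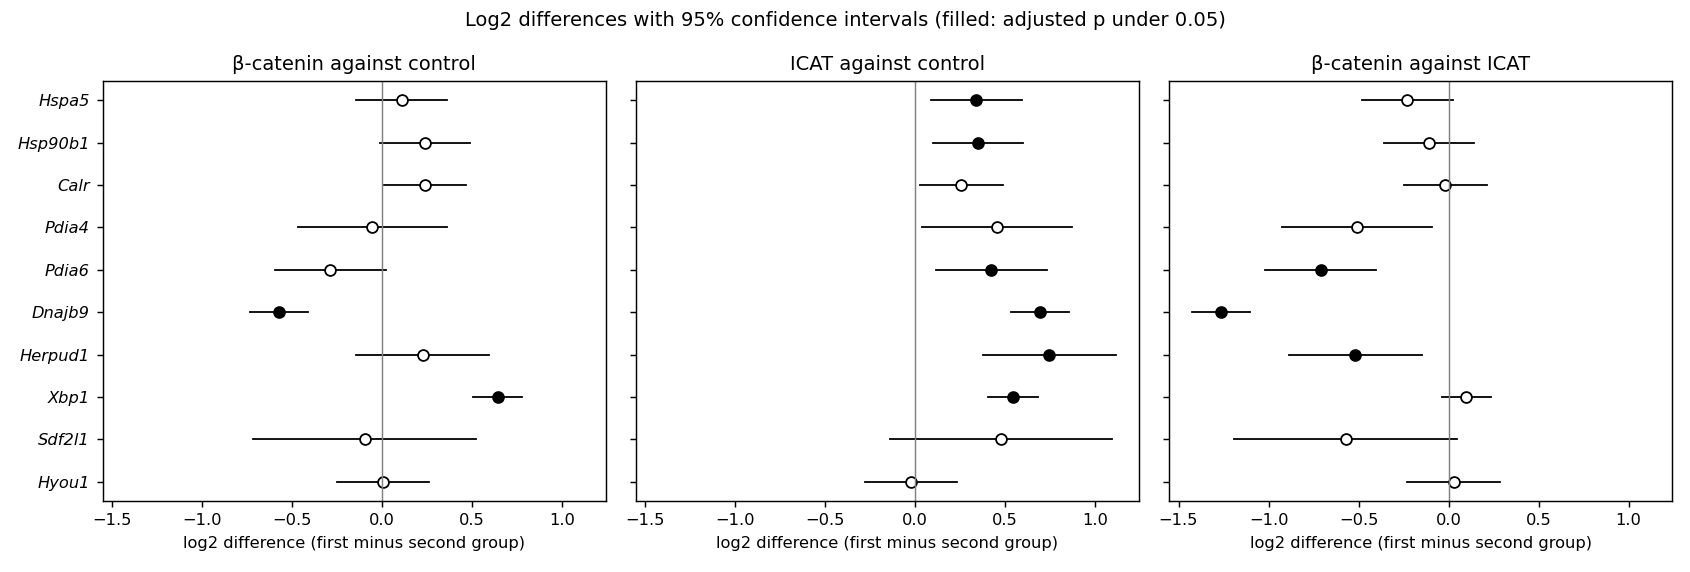
Log2 difference (x axis) of each of the 10 ER genes (y axis) in the 3 comparisons, with 95% confidence intervals not adjusted for multiple tests, and filled points for limma adjusted p under 0.05. Dnajb9 lies at 0.69 in ICAT and -0.57 in beta-catenin cells against control, while Xbp1 lies above 0 in both.

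In beta-catenin cells 1 of the 10 genes was higher than control, Xbp1, and 1 was lower, Dnajb9, where 34.9% of all genes passed in either direction, 19.6% higher and 15.4% lower. The median of the 10 genes was 0.06, against -0.03 over all genes tested. All beta-catenin arrays exceeded all control arrays for 5 of the 10 genes, and all lay below for 3, where 27.8% of all genes lay above, 26.3% below and 54.1% either way. Without ICAT replicate 1, 3 genes were higher (Hsp90b1, Calr and Xbp1) and 2 lower (Pdia6 and Dnajb9), where 21% of all genes passed higher and 16.7% lower. Compared directly with ICAT, 3 genes were lower in beta-catenin cells (Pdia6, Dnajb9 and Herpud1) and 0 higher, where 40.4% of all genes passed, 17.9% lower and 22.5% higher. At an unadjusted p under 0.05, 4 were lower and 0 higher, again with no share of all genes counted at that threshold. Without ICAT replicate 1, 8 of 10 were lower and 0 higher, where 17.9% passed lower and 21.6% higher. Calr passed only just there (limma adjusted p = 0.0475), and none of its probe sets did over all probe sets (0.0504 to 0.161). The second probe set of Hsp90b1 differed by -0.05 in that fit (adjusted p = 0.645). Both comparisons with control share the control arrays.

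**Figure D3:**
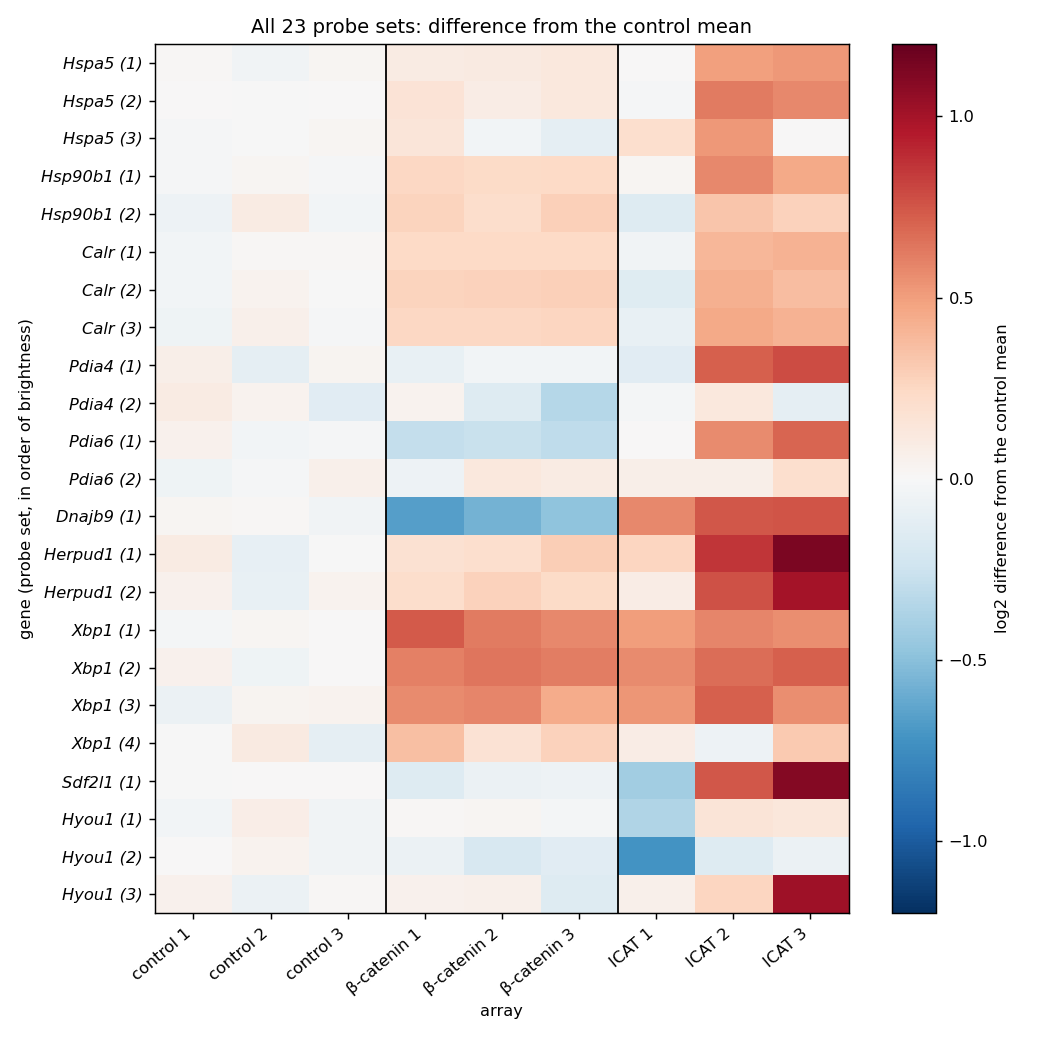
Heat map of the log2 difference from the control mean (colour) for the 23 probe sets (rows, by gene and from bright to dim) on the 9 arrays (columns). Most rows are near the control level on ICAT replicate 1 and above it on replicates 2 and 3, and the 3 brighter Xbp1 rows are above it on all beta-catenin and ICAT arrays.

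The second probe set of Hspa5 was 0.39 higher in ICAT than in control (adjusted p = 0.0395 over all probe sets), and its remaining one 0.24 (adjusted p = 0.136). They stood at 0.60 and 0.26 without ICAT replicate 1, of which the first passed. For Hsp90b1 the second was 0.15 above control in ICAT (adjusted p = 0.34) and 0.25 in beta-catenin cells (adjusted p = 0.106), and its ICAT difference was 0.31 without ICAT replicate 1 (adjusted p = 0.00846). The dim second probe sets of Pdia4 and Pdia6 lay 0.00 and 0.11 from control in ICAT cells, and 0.01 and 0.14 without ICAT replicate 1, so for these 2 genes the values above rest on the bright probe set.

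Among the sensors and their activating proteases, Ern1, the IRE1 kinase and nuclease, was lower in beta-catenin and higher in ICAT than in control. It read 8.28, 8.29 and 8.27 in control, 7.32, 7.52 and 7.44 in beta-catenin and 8.49, 8.66 and 8.63 in ICAT cells. The 3 groups did not overlap. Ern1 was -0.86 from control in beta-catenin (limma adjusted p = 2.79e-06) and 0.31 in ICAT cells (adjusted p = 0.00465), and both calls held without any single array. Eif2ak3 (PERK) was 0.68 higher in ICAT cells (adjusted p = 0.00221), and 0.32 above control in beta-catenin cells without passing (adjusted p = 0.0918, and 0.00203 without ICAT replicate 1). Atf6 was 0.49 lower in beta-catenin cells (log2 difference -0.49, adjusted p = 0.00429) and its ICAT difference was -0.06 (adjusted p = 0.75), and 0.07 without ICAT replicate 1 (adjusted p = 0.597). Of the 6 genes of this list, 4 were higher and 1 lower in ICAT cells, also without ICAT replicate 1. The shares were 66.7% and 16.7%, against 18.7% and 18.5% of all genes. In beta-catenin cells 1 was higher and 3 lower (2 and 3 without ICAT replicate 1). With all arrays that was 16.7% and 50%, against 19.6% and 15.4% of all genes. Against ICAT, 1 was higher and 2 lower in beta-catenin cells (1 and 3 without ICAT replicate 1). With all arrays that was 16.7% and 33.3%, against 22.5% and 17.9% of all genes. Atf6b was lower in both lines (-0.62 and -0.70) and Mbtps2, the site-2 protease that cleaves Atf6, higher in both (1.05 in beta-catenin and 0.28 in ICAT).

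In the PERK and ATF4 arm, 3 of 11 genes were higher and 1 lower in ICAT than in control. The shares were 27.3% and 9.09%, against 18.7% and 18.5% of all genes. Without ICAT replicate 1 the counts were 7 and 0. The median was 0.17 with all arrays and 0.42 without that array. Ddit3 (CHOP), a transcription factor induced by prolonged ER stress, read 8.28, 8.23 and 8.30 in control, 8.31, 8.20 and 8.17 in beta-catenin and 9.23, 9.68 and 9.79 in ICAT cells. Every ICAT array, replicate 1 included, lay above every other array, and the difference from control was 1.30 (limma adjusted p = 1.22e-05), with -0.04 in beta-catenin cells (adjusted p = 0.817). Cebpb was higher in both lines (0.97 in ICAT, 0.56 in beta-catenin) and Atf3 in ICAT cells (0.51, adjusted p = 0.00804). Atf4 itself, the central factor of this arm, was -0.34 from control in beta-catenin cells (adjusted p = 0.0144, 0.0511 without control replicate 3) and 0.11 in ICAT cells (adjusted p = 0.42, and 0.22 with adjusted p = 0.0483 without ICAT replicate 1). Ppp1r15b was -0.27 from control in ICAT cells (adjusted p = 0.0157), lost without control replicate 2 or 3 or ICAT replicate 1 or 2. In beta-catenin cells 1 of 11 genes was higher and 3 lower (2 and 6 without ICAT replicate 1). With all arrays that was 9.09% and 27.3%, against 19.6% and 15.4% of all genes. Among the lower were Sesn2 (-0.44) and Asns (-0.55, adjusted p = 0.018, lost without control replicate 1 or 2 or beta-catenin replicate 1).

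Trib3, an Atf4 and Ddit3 target, read 8.71, 8.67 and 8.58 in control, 7.61, 7.62 and 7.80 in beta-catenin and 8.31, 9.89 and 10.23 in ICAT cells. The beta-catenin arrays were the lowest, and ICAT replicate 1 lay below control. Its difference of 0.82 between ICAT and control did not pass with all arrays (limma adjusted p = 0.104) but did without ICAT replicate 1 (adjusted p = 4.63e-06). Compared with ICAT, 9 of the 11 genes of this arm were lower in beta-catenin cells and 0 higher, also without ICAT replicate 1. Of these 9, 5 kept their call whichever array was left out, and Atf3, Ppp1r15a, Chac1 and Asns did not. The shares were 81.8% lower and 0% higher, against 17.9% and 22.5% of all genes. Trib3 was lower by 1.80 (log2 difference -1.80, adjusted p = 0.00202, and -2.38 without ICAT replicate 1), Ddit3 by 1.34 (-1.34) and Sesn2 by 0.58 (-0.58). Chac1 was -0.82 from ICAT (adjusted p = 0.0259), lost without any beta-catenin array or without ICAT replicate 2 or 3, and -1.24 without ICAT replicate 1.

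Of 30 other ER chaperones and foldases, 11 were higher and 1 lower in ICAT than in control (36.7% and 3.33%, against 18.7% and 18.5% of all genes), and 20 and 0 without ICAT replicate 1, with medians of 0.24 and 0.28. Fkbp14, a prolyl isomerase of collagen folding, was 1.21 higher in ICAT and 0.59 in beta-catenin cells, and Serpinh1, the collagen chaperone, 0.44 and 0.58. Fkbp7 was also higher in both (0.69 and 0.66). Ero1b, an oxidase that supplies disulfide bonds, was 0.49 higher in ICAT cells (limma adjusted p = 0.00161). Pdia3 was 0.37 higher in ICAT cells (adjusted p = 0.0145, 0.0613 without ICAT replicate 2). P4hb (0.18), Dnajc3 (0.39), Dnajb11 (0.05) and Canx (0.16) did not pass in ICAT cells with all arrays. With ICAT replicate 1 left out all 4 were higher, at 0.27, 0.59, 0.21 and 0.24 (limma adjusted p = 0.00929, 0.000402, 0.0427 and 0.0138). In beta-catenin cells 7 were higher and 5 lower (23.3% and 16.7%, near the 19.6% and 15.4% of all genes), and 10 and 5 without ICAT replicate 1. Canx (calnexin), the membrane partner of Calr, was 0.22 higher there (adjusted p = 0.0341), a call lost without any control or beta-catenin array. Txndc5 was -0.46 and Ero1a -0.69 from control in beta-catenin cells (adjusted p = 0.00296 and 0.0261), the latter lost without any control array or without beta-catenin replicate 1 or 3. Against ICAT, 8 of the 30 were lower in beta-catenin cells and 0 higher, and 14 and 0 without ICAT replicate 1. With all arrays that was 26.7% lower and 0% higher, against 17.9% and 22.5% of all genes. Ero1a was lower by the most (-1.11, adjusted p = 0.00147), with Fkbp14 (-0.63), Txndc5 (-0.49) and Ppib (-0.39).

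Of 21 genes of ER-associated degradation, 10 were higher and 3 lower in ICAT than in control (47.6% and 14.3%, against 18.7% and 18.5% of all genes), and 10 and 2 without ICAT replicate 1, with medians of 0.14 and 0.21. Sel1l, the scaffold of the Hrd1 ligase, was 0.84 higher in ICAT cells (limma adjusted p = 0.00036) and 0.39 in beta-catenin cells (adjusted p = 0.0355, lost without any control or beta-catenin array). Derl1, a channel component, was higher in both (0.80 and 0.71). Edem1, which marks glycoproteins for degradation, was 0.49 higher in ICAT cells (adjusted p = 0.0151), lost without ICAT replicate 2 or 3. Erlec1, a lectin of the same pathway, was 0.52 higher in ICAT cells (adjusted p = 0.000102). Ube2j1 (-0.44) and Ufd1 (-0.45) were lower there. In beta-catenin cells 7 were higher and 2 lower, also without ICAT replicate 1 (33.3% and 9.52%, against 19.6% and 15.4% of all genes), with Os9 at 0.29 and Ufd1 at -0.57. Against ICAT, 5 were higher in beta-catenin cells and 4 lower, and 4 and 7 without ICAT replicate 1. With all arrays that was 23.8% and 19%, near the 22.5% and 17.9% of all genes. Nploc4 was at 0.50, Ube2j1 at 0.38 and Edem1 at -0.53.

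Of 29 genes of ER entry, N-glycosylation and COPII export, 11 were higher and 2 lower in ICAT cells (37.9% and 6.90%, against 18.7% and 18.5% of all genes), and 16 and 2 without ICAT replicate 1, with medians of 0.13 and 0.20. Sec23a, a COPII coat subunit, was 0.84 higher in ICAT cells (limma adjusted p = 4.76e-06) and -0.03 from control in beta-catenin cells. Spcs1 (0.46) and Ostc (0.50), of the signal peptidase and the oligosaccharyltransferase, were also higher in ICAT cells, as was Sec31a (0.36). In beta-catenin cells 5 were higher and 2 lower (17.2% and 6.90%, against 19.6% and 15.4% of all genes), and 7 and 4 without ICAT replicate 1, Spcs3 (0.50), Ssr2 (0.31), Sec11a (0.29) and Ostc (0.30) among the higher, with the call of Ostc lost without any control or beta-catenin array. Against ICAT, 4 were higher in beta-catenin cells and 9 lower, and 3 and 13 without ICAT replicate 1. With all arrays that was 13.8% and 31%, against 22.5% and 17.9% of all genes. Spcs3 was at 0.58, Sec11c at 0.43, Sec23a at -0.87 and Spcs1 at -0.51. The Sec11c call was lost without beta-catenin replicate 2 or 3, and its value was 0.22 without ICAT replicate 1.

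Of 16 tested chaperones of the cytosol and mitochondria, Hspa1a lay below the filter on low values on all control arrays and is left out of the counts. It read 4.58 ± 0.0776 (SD, n = 3) on control arrays, 5.05 ± 0.104 on beta-catenin arrays and 5.76 ± 0.0363 on ICAT arrays. Of the other 15, 1 was higher and 9 lower in ICAT than in control (6.67% and 60.0%, against 18.7% and 18.5% of all genes), and 1 and 8 without ICAT replicate 1, with a median of -0.28. Hspa4 was -0.55, Hspa4l -0.75 and Hspe1 -0.48 from control, and 7 of the 9 kept their call without any single array. The higher one was Hspb1 (Hsp27), a small heat shock protein. It read 9.18 ± 0.0839 (SD, n = 3) on control arrays, 13.08 ± 0.0127 on beta-catenin arrays and 11.29 ± 0.208 on ICAT arrays, 3.90 and 2.11 above control. In beta-catenin cells 2 of the 15 were higher and 3 lower (2 and 4 without ICAT replicate 1), with Bag3 at 0.34 and Hspa4l at -0.68. With all arrays that was 13.3% and 20%, against 19.6% and 15.4% of all genes. Against ICAT, 8 were higher in beta-catenin cells, also without ICAT replicate 1 (53.3%, against 22.5% of all genes).

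**Figure D4:**
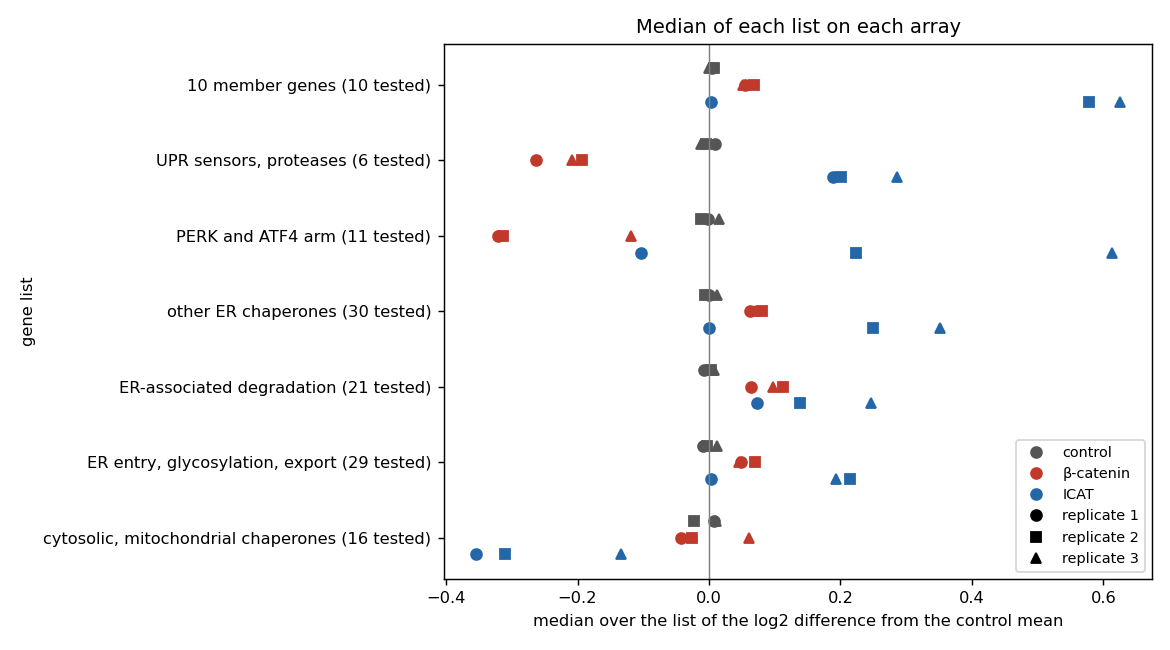
Median log2 difference from the control mean (x axis) of the genes of each list (y axis), Hspa1a included. Each point is 1 array, with colour giving the group and marker shape the replicate. The 10 ER genes lie at 0.00 on ICAT replicate 1 and at 0.58 and 0.63 on replicates 2 and 3, and the other ER chaperones at 0.25 and 0.35 on replicates 2 and 3.

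Of the cell-type marker lists, mainly the fibroblast list and part of the epithelial list were higher in ICAT than in control cells. Of 12 fibroblast markers on the array, 10 passed the filter on low values and 8 were higher in ICAT than in control (7 without ICAT replicate 1), with a summed linear signal of 31375.6 to 31870.8 on control arrays, 28957.4 to 30110.9 on beta-catenin arrays and 46545.9 to 47644.7 on ICAT arrays. The 8 higher were 80% of the 10, against 18.7% of all genes. Lum and Fap were below the filter. The median difference of the list from control was 1.28 on ICAT replicate 1, 0.66 on replicate 2 and 0.60 on replicate 3. Among the ICAT arrays, the one lowest for the 10 ER genes thus had the highest median of this list. Its genes were mixed. Pdgfra, Pdgfrb, Dcn, Postn, Acta2 and S100a4 were highest on ICAT replicate 1 among the ICAT arrays. Col1a1, Col1a2 and Col3a1 were lowest on it, and Thy1 lay between the other ICAT arrays. Of 7 tested epithelial and ductal markers 4 were higher in ICAT (Krt8, Krt18, Krt19 and Sox9), with a sum of 1509.45 to 1853.31 against 1123.18 to 1190.3 in control and 1118.81 to 1155.7 in beta-catenin cells. Cdh1, a defining epithelial marker, reached at most 3.56 on any array and was below the filter. Acinar markers summed to 1099.84 to 1168.51 on control arrays, 1428.29 to 1484.86 on beta-catenin arrays and 1134.4 to 1248.31 on ICAT arrays. The list did not rise as a group in beta-catenin cells, where its median difference from control was -0.02. There only Cela1 was higher (1.21, limma adjusted p = 1.52e-07) and only Ctrb1 lower (-0.22, adjusted p = 0.0271). The Ctrb1 call was lost without control replicate 1 or 3 or beta-catenin replicate 2 or 3. Of the 8 tested, 1 was higher in ICAT, Cela1 (12.5%, against 18.7% of all genes), and Ptf1a and Amy1 were below the filter. Immune and endothelial markers summed to 743.138 to 772.556, 681.633 to 734.014 and 711.359 to 791.152. In ICAT cells 0 of 7 were called by limma. At an unadjusted p under 0.05, 1 was higher, with no share of all genes counted at that threshold. Ptprc, Itgam, Cdh5 and Tek were below the filter. The part of these cell-type markers in the ER results was not tested, and in a bulk sample a change in the share of cells cannot be told apart from a change in RNA per cell.

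Dnajb9 had the widest range of group means of the 10 genes, 1.26. Across the 9 arrays, the tested genes with the smallest mean absolute distance from it, after each was set relative to its control mean, were Rnf113a2 (0.0616), Itgbl1 (0.0632), Rnf144b (0.0663), Ano1 (0.069) and Taok3 (0.0855).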

How the data were processed

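The authors deposited log2 expression values, which the submitters' processing notes credit to RMA and affy (versions not given in the sources used here). RMA includes background correction and quantile normalization, so values are relative within these 9 arrays. Each gene was represented by its brightest single-gene probe set (34945 single-gene, 932 with several genes, 9160 with none). Genes reaching log2 5 on at least 3 arrays were kept (15235 of 18193), and all 10 ER genes passed on all 9 arrays. All groups were fitted in limma 3.58.1 under R 4.3.3, with 6 residual degrees of freedom and a prior of 5.03. P-values were adjusted by Benjamini-Hochberg over all genes tested at a threshold of 0.05. The other probe sets came from a fit over 27576 probe sets. The fit was tested on simulated data with the same spread for a gene in all 3 groups. The larger spread of the ER genes among ICAT arrays was not part of that test. Exact permutation of 3 against 3 arrays reaches p = 0.1 at best and was not used. The number of arrays limits the precision. The genes and lists were chosen with earlier results of these data known. Genes named from a list are the 4 called ones with the largest differences in each comparison and a set of sensors, effectors and folding genes. Alternatives included other filters, scalings and probe set rules, array weights, and leaving out each array.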

Additional observations from a re-analysis of the deposited data

How the results depend on the processing

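Over 19 alternatives (10 settings and 9 arrays left out in turn), 512 of 570 gene values kept their direction and side of the threshold, 30 lost a call, 28 gained one and 0 reversed. Testing every probe set called 9071, 9767 and 10608 features for beta-catenin against control, for ICAT against control and for the 2 lines against each other. Fitting only the 6 arrays compared, 4 ER genes were higher and 2 lower in beta-catenin against control, and 3 higher in ICAT against control. Array weights gave 8324 of the 15235 genes tested called, 3 ER genes higher and 2 lower in beta-catenin against control, and a trend on mean expression gave 2 higher. The cause of these changes was not tested. For these settings the share of all genes called in each direction is not given, so their counts of ER genes have no background here. Leaving out 1 array, genes called ranged from 4274 to 6222 (beta-catenin against control), 4584 to 6148 (ICAT against control) and 5162 to 6967 (beta-catenin against ICAT). ER genes called then ranged from 1 to 3 higher and 1 to 2 lower in beta-catenin against control, from 3 to 9 higher and 0 to 0 lower in ICAT against control, and from 0 to 0 higher and 2 to 8 lower in beta-catenin against ICAT, with the upper ends of the ICAT ranges reached without ICAT replicate 1. The replicate numbers were not shown to pair the arrays: 5 of 9 same-number correlations exceeded 0.1 (-0.129 to 0.41). With the replicate number as a block, 5524, 5853 and 6389 genes were called, and ER genes called were 1 higher and 1 lower, 6 and 0, and 0 and 4, with Pdia4 gained in beta-catenin against ICAT (limma adjusted p = 0.0402). Leaving out ICAT replicate 1 from the lists and further probe sets, and leaving out list genes below the filter throughout a group, were chosen after seeing the data.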
